A study of Mus musculus with 7 samples.

Results

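Cyclic nucleotide phosphodiesterases were followed in single-nucleus RNA sequencing (snRNA-seq) of the mouse posterolateral cortical amygdala (plCoA), a ventral brain area that receives olfactory bulb input. The members were chosen by gene symbol: Pde1a, Pde1b, Pde1c, Pde2a, Pde4b, Pde7b, Pde8b, Pde9a, Pde10a and Pde11a, which are 10 of the 32285 genes in the deposited tables. All samples came from male C57BL6J mice 8 weeks old, and differed only in whether the tissue was cut from the anterior (aplCoA) or the posterior domain (pplCoA). Each domain had 3 replicates, and aplCoA replicate 1 was sequenced as a pair of libraries that were summed here, so that 7 libraries gave 6 replicates. By the study's methods each replicate was a pool of tissue from several mice that had been housed alone and deprived of sensory input for the day before, and nuclei were sorted by a DNA stain with no gate on cell type.

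Phosphodiesterases (PDEs) cut the second messengers cAMP and cGMP, which adenylyl and guanylyl cyclases make when G protein-coupled receptors, nitric oxide or natriuretic peptides act on a cell. Families differ in substrate and in control: PDE1 enzymes are switched on by calcium-calmodulin and cut both messengers, PDE2A cuts cAMP faster when cGMP binds to it, PDE10A and PDE11A cut both, PDE4, PDE7 and PDE8 enzymes prefer cAMP, and PDE9A prefers cGMP. In the brain PDE10A is best known from striatal medium spiny neurons, PDE2A from cortical and limbic principal neurons, and PDE4B as a target of rolipram.

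Stretches of RefSeq sequence at the starts of 3 members are shown. Pde1a and Pde2a were taken because they changed together between the domains, and Pde11a because few groups of neurons used it, as described below. Pde1b changed in the same direction as Pde1a and Pde2a but is not shown, and none of its 3 windows holds the motif searched for. Of the 4 annotated starts of Pde1a and the 5 of Pde2a, the one whose window holds the motif searched for is shown, while Pde11a has 1 start. Each runs 5′ to 3′ on the gene's strand in GRCm38.p6, from 250 bases before to 50 bases after an annotated start, and capitals mark the short form of the cAMP response element (CRE), TGACG or CGTCA, the letters that CREB family factors are known to bind.
Pde1a, chr2:80038853-80039152, minus strand: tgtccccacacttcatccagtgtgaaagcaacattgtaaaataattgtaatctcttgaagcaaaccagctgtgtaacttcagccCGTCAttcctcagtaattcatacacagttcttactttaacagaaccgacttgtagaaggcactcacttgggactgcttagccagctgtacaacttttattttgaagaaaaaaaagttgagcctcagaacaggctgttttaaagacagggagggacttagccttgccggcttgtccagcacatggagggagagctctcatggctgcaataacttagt
Pde2a, chr7:101450270-101450569, plus strand: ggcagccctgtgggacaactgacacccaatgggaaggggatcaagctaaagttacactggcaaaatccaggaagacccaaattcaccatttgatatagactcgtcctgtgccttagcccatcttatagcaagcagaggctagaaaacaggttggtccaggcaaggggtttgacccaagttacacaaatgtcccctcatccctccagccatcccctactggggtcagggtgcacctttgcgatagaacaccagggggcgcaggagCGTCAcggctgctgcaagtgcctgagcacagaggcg
Pde11a, chr2:76338889-76339188, minus strand: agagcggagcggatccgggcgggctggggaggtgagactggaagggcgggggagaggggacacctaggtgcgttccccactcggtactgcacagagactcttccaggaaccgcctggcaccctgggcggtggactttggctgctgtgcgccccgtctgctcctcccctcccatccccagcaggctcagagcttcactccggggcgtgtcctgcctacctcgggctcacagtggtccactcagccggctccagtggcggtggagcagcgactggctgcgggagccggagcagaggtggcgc
The short motif, searched on both strands, stood in 4 of the 28 windows of the 9 members found in the table (Pde9a was not), namely in 1 window each of Pde1a, Pde2a, Pde4b and Pde8b. It was held by 20.8% of all 32851 windows given there. The full palindrome TGACGTCA, which contains both short forms, stood in none of the members' windows and in 1.79% of all. A match is only a run of letters, and no match says only that these letters are not in this window.

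The 7 libraries held 50812605 to 129624583 UMIs, the counts of distinct RNA molecules, over all their barcodes, and 52201 barcodes had at least 1000 genes. After limits on UMIs, mitochondrial and ribosomal shares and doublets, 46403 nuclei remained, 27354 of aplCoA and 19049 of pplCoA, with a median of 6174 UMIs. Any pair of libraries shared 5 to 37 barcodes. Classes were named from marker genes: 19021 glutamatergic and 5119 GABAergic neurons, 9740 astrocytes, 3640 oligodendrocyte precursors (OPCs), 292 newly formed (NFOLs) and 1541 mature oligodendrocytes (MOLs), 2796 microglia, 263 macrophages, 1857 vascular leptomeningeal cells (VLMCs) and 887 arachnoid barrier cells (ABCs). No endothelial or mural class was found after these limits. With no filter but genes per barcode, an endothelial cluster of 191 and a mural cluster of 133 nuclei were named. With doublets kept, a mural cluster of 100 nuclei was named. The 38 nuclei of GABAergic cluster 19, described below, stayed in their class but shared leading genes with these mural clusters. Clusters of 1090 and 157 nuclei stayed unnamed, because a VLMC marker was among the leading genes of the first, which otherwise had glutamatergic markers, and because only 2 ABC markers were detected in the second. The larger held 0.0731% of aplCoA and 5.62% of pplCoA nuclei. Its mean marker z-score over clusters was highest for the glutamatergic list (0.71, next the VLMC list at 0.13), and its median depth was 11691 UMIs. Both unnamed clusters together held 99, 497 and 485 nuclei in pplCoA replicates 1, 2 and 3, beside 3490, 1898 and 1761 glutamatergic nuclei. The members' domain tests in glutamatergic neurons were therefore also computed with the larger one kept in that class. Not computed with it were the glutamatergic levels given below and the spread of glutamatergic clusters over the domains. Pde1c in these neurons, tested only under other settings, was not computed with it either.

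Levels are UMIs per 1000000 UMIs of the class (CPM), given as mean ± SD over replicates with at least 20 nuclei of the class (n = 6, or n = 4 for macrophages). Introns were counted, and the members span 27.0 to 520 kb of genome, so levels are compared between classes and not between genes. The 10 members were proposed with such levels in view, and class and cluster levels are therefore described without a test. Shares of nuclei with a UMI are from nuclei thinned to 2000 UMIs, with the unthinned share beside it. In droplet data free RNA gives UMIs in nuclei that do not express a gene, so the share in a class with a low level is given with each. The classes' median depth ran from 2624 UMIs in macrophages to 12249 UMIs in glutamatergic neurons, and thinning left 18948 of the 19021 glutamatergic nuclei and 202 of the 263 macrophages.

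The calcium-controlled PDE1 genes had their highest levels in different classes. Pde1a (ENSMUSG00000059173, chr2:79834453-80129458, minus strand, mm10) was highest in VLMCs at 1352 ± 165 CPM. The 3 aplCoA replicates had 1072, 1397 and 1417 CPM there and the 3 pplCoA replicates 1240, 1502 and 1481 CPM. Glutamatergic neurons followed at 804 ± 115 CPM, with no replicate in the VLMC range, then OPCs at 299 ± 20.9 and GABAergic neurons at 273 ± 25.3 CPM, which overlapped. A Pde1a UMI was seen in 83.2% of thinned VLMC nuclei (90.2% unthinned), 67.0% of glutamatergic nuclei (93.3%) and 5.10% of astrocytes (8.58%), where the level was 22.3 ± 8.28 CPM. Because glutamatergic nuclei were many and deep, they held 83.4% of all Pde1a UMIs and VLMCs held 3.94%.

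Pde1b (ENSMUSG00000022489, chr15:103503034-103530052, plus strand) was highest in microglia at 55.0 ± 9.84 CPM. Macrophages at 35 ± 13.9 CPM overlapped microglia and also glutamatergic neurons, which had 30.3 ± 2.87 CPM. GABAergic neurons had 14.6 ± 1.41 CPM, below all glutamatergic replicates. A Pde1b UMI was seen in 9.93% of thinned microglia (16.0% unthinned) and in 0.627% of NFOLs (1.37%).

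Pde1c (ENSMUSG00000004347, chr6:56069804-56569103, minus strand) was highest in OPCs at 233 ± 17.2 CPM and next in MOLs at 168 ± 24.7 CPM, whose ranges did not overlap. NFOLs, the class between them, had 73.0 ± 13.3 CPM. Astrocytes had 92.2 ± 6.08, ABCs 85.8 ± 25.8 and GABAergic neurons 73.0 ± 3.05 CPM. Glutamatergic neurons had 7.14 ± 3.05 CPM, and 6.20 ± 1.64 CPM without glutamatergic cluster 22, described with the neuron subtypes. A Pde1c UMI was seen in 33.1% of thinned OPCs (51.5% unthinned) against 1.52% of glutamatergic neurons (7.23%) and 0.861% of microglia (1.32%).

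Of the genes whose products cut both messengers without calmodulin, Pde2a and Pde10a were highest in neurons and next in OPCs, and Pde11a was found in few groups. Pde2a (ENSMUSG00000110195, chr7:101421691-101512827, plus strand) was highest in glutamatergic neurons (169 ± 21.8 CPM), with GABAergic neurons (78.4 ± 5.78 CPM) and then OPCs (52.8 ± 6.42 CPM) below them, each range apart from the next. A Pde2a UMI was seen in 26.8% of thinned glutamatergic nuclei (76.2% unthinned) and in 1.30% of ABCs (2.25%). The predicted protein-coding gene Gm45837 overlaps Pde2a on the same strand, and how shared reads were counted is not given in the sources used here. Pde10a (ENSMUSG00000023868, chr17:8525372-8986648, plus strand) ran the other way, with 1301 ± 55.7 CPM in GABAergic and 709 ± 32.3 CPM in glutamatergic neurons. Its GABAergic level was 1251, 1349 and 1290 CPM in the aplCoA replicates and 1377, 1232 and 1306 CPM in the pplCoA replicates, every one above the highest glutamatergic value of 769 CPM. OPCs had 375 ± 30.4 CPM, microglia 17 ± 7.22. A Pde10a UMI was seen in 79.6% of thinned GABAergic nuclei (94.2% unthinned) and in 3.60% of microglia (5.79%).

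Pde11a (ENSMUSG00000075270, chr2:75989141-76338774, minus strand) had 107 ± 12.4 CPM in GABAergic neurons and 18 ± 6.34 CPM in glutamatergic neurons. In GABAergic neurons the aplCoA replicates had 94.5, 110 and 121 CPM and the pplCoA replicates 121, 95.6 and 98 CPM. ABCs averaged 112 ± 73.3 CPM but were spread from 48.1 to 242 CPM, overlapping the GABAergic range. The remaining classes lay at 2.69 CPM or below, and NFOLs had no UMI of it in 292 nuclei, which allows a level of up to 1.85 CPM and up to 1.03% of nuclei with a UMI (3 counts). A UMI was seen in 14.0% of thinned GABAergic nuclei (24.1% unthinned), in 2.95% of glutamatergic nuclei (9.99%) and in 0.247% of microglia (0.358%).

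Among the cAMP-preferring members, Pde4b was set apart by its highest class, 4.92-fold above the next. Pde4b (ENSMUSG00000028525, chr4:102087543-102607259, plus strand) reached 10597 ± 1152 CPM in MOLs, against 2156 ± 284 in NFOLs and 1925 ± 91.1 in OPCs. The MOL values were 8625, 9855 and 10954 CPM in aplCoA and 11068, 11358 and 11723 CPM in pplCoA, all far above every other class. NFOLs and OPCs overlapped, and astrocytes (562 ± 34.7 CPM) overlapped glutamatergic neurons (532 ± 107 CPM). ABCs were lowest at 57.4 ± 17.4 CPM. A UMI was seen in nearly all MOL nuclei after thinning, in 94.7% of OPCs (98.5% unthinned) and 10.3% of ABCs (18.2%).

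Pde7b (ENSMUSG00000019990, chr10:20398004-20725078, minus strand) was shared by macrophages (622 ± 130 CPM), VLMCs (612 ± 80.2 CPM) and OPCs (604 ± 56.1 CPM), whose replicates overlapped. ABCs (432 ± 111 CPM) and astrocytes (424 ± 38.1 CPM) came next, and in that order each class overlapped its neighbour. Along the oligodendrocyte classes its level was lower in NFOLs (43.3 ± 18.4 CPM) than in OPCs and lower again in MOLs (2.76 ± 2.30 CPM), the class in which Pde4b was highest. Glutamatergic neurons had 242 ± 21.1 and GABAergic neurons 68.3 ± 7.16 CPM, with no overlap. Its share of thinned nuclei was 64.3% in OPCs (82.0% unthinned) and 0.668% in MOLs (1.23%).

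Pde8b (ENSMUSG00000021684, chr13:95024454-95250336, minus strand) was highest in astrocytes at 471 ± 33.9 CPM, 2.45-fold above the next class. VLMCs, OPCs, glutamatergic neurons, NFOLs and GABAergic neurons then followed from 192 ± 19.4 down to 137 ± 18.4 CPM, each overlapping its neighbour. The GABAergic level was 125 ± 9.02 CPM without GABAergic cluster 19, 38 nuclei with 3815 CPM of Pde8b and with Vtn and Atp13a5, known from pericytes, among their leading genes. The 4 remaining classes had 31.8 CPM or less. A UMI was seen in 54.8% of thinned astrocytes (68.7% unthinned) and 2.19% of ABCs (4.06%).

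The cGMP-preferring member, Pde9a (ENSMUSG00000041119, chr17:31386210-31476310, plus strand), was highest in NFOLs at 170 ± 44.0 CPM. The NFOL replicates had 109, 157 and 185 CPM in aplCoA and 217, 215 and 134 CPM in pplCoA, from 36 to 58 nuclei each, and overlapped GABAergic neurons at 96.6 ± 9.94 CPM. Astrocytes had 57.2 ± 4.91 and glutamatergic neurons 17.7 ± 3.96 CPM. Within the lineage the level was 4.96 ± 2.12 CPM in OPCs and 3.16 ± 3.10 CPM in MOLs, so the high level lay in the class between them. A Pde9a UMI was seen in 23.3% of thinned NFOLs (43.8% unthinned) and in 0.127% of microglia (0.358%). Macrophages had no Pde9a UMI in 263 nuclei, which allows up to 3.91 CPM and up to 1.14% of nuclei with a UMI. Such limits cover counting error only and do not bound the share of nuclei that express the gene.

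**Figure D1:**
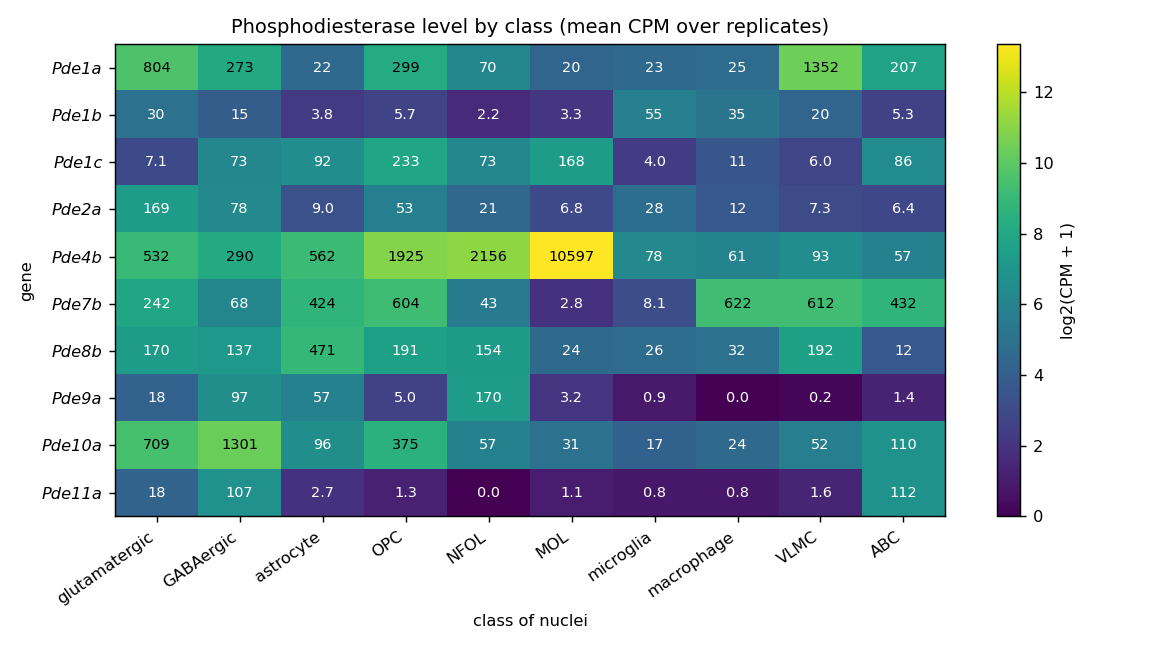
Mean level over replicates of the 10 members (rows) in the 10 marker-defined classes (columns), colored by log2(CPM + 1) and printed in CPM. Pde4b stands out in MOLs at 10597 CPM, Pde1a in VLMCs at 1352 CPM and Pde10a in GABAergic neurons at 1301 CPM.

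To ask how the members were used among neuron subtypes, the glutamatergic and the GABAergic nuclei were each clustered again with all PDE genes left out, which gave 26 and 20 clusters. Clusters are called by number and leading genes. Those with at least 50 nuclei, 24 glutamatergic and 17 GABAergic, are compared below by their pooled CPM. Pde2a, Pde4b, Pde7b, Pde8b and Pde10a had no glutamatergic cluster far above the others, the highest level being 1.64 to 1.87 times the median level. Their lowest levels were 48.1, 156, 26.9, 84.8 and 253 CPM, against medians of 148, 560, 215, 158 and 633 CPM. Pde11a and Pde1c were selective, with a highest level 18.4 and 42.1 times the median over glutamatergic clusters and 44.4 and 10.7 times over GABAergic clusters. The glutamatergic value of Pde1c rests on cluster 22, described next, and without it the highest level was 46.7 CPM against the median of 5.04 CPM.

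Pde1c was carried by few neurons. GABAergic cluster 17, led by Fign, Gldn and Prkcq, had 451 CPM, cluster 14 (Kcnmb1, Pax6, Rmst) 266 CPM and cluster 5 (Crh, Stk32a, Dach2) 247 CPM, against a median of 42.0 CPM. The highest glutamatergic value, 212 CPM, came from cluster 22, whose leading genes included Dlx6os1 and Gad2 and whose Gad2 level of 215 CPM was above its Slc17a7 level of 12.0 CPM, so it goes against its class, in which it was kept. The next glutamatergic cluster, 21 (Trp73, Ndnf, Ebf3), had 46.7 CPM.

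Pde10a had 242 CPM or more in all 41 clusters and was highest in GABAergic cluster 8 (C87487, Dkk2, 6530411M01Rik) with 2702 CPM, followed by cluster 7 (Ptger3, Ccdc60, Cobll1) with 1800 CPM. The replicates of cluster 8 ran from 2370 to 3543 CPM and those of cluster 7 from 1472 to 2018 CPM, which did not overlap. GABAergic cluster 12 (Prss12, Esr1, Gm39185) was lowest with 242 CPM. Among glutamatergic clusters the highest value was 1042 CPM in cluster 8 (Mybpc1, Gm49164, Gm49171).

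Pde1a was highest in glutamatergic clusters 23 (Gm13561, Dpp4, Satb1; 1606 CPM), 13 (Gm34719, Col23a1, Gm34667; 1371 CPM) and 16 (Gm31698, Met, Gm30094; 1318 CPM). In GABAergic clusters it ran from 16.5 CPM in cluster 9 (Gm20658, Mctp2, Vipr2) to 789 CPM in cluster 16 (Itga8, Egln3, Gulp1). Pde4b spanned 23.0 to 759 CPM in GABAergic clusters, with its lowest level in the same cluster 9 and its highest in cluster 4, led by Vip. Pde9a spanned 1.2 to 67.7 CPM in glutamatergic clusters. Cluster 12 (Ebf1, Gm12158, Meis1) had the highest glutamatergic level of Pde9a, and it also had the highest of Pde4b (973 CPM) and Pde8b (260 CPM).

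**Figure D2:**
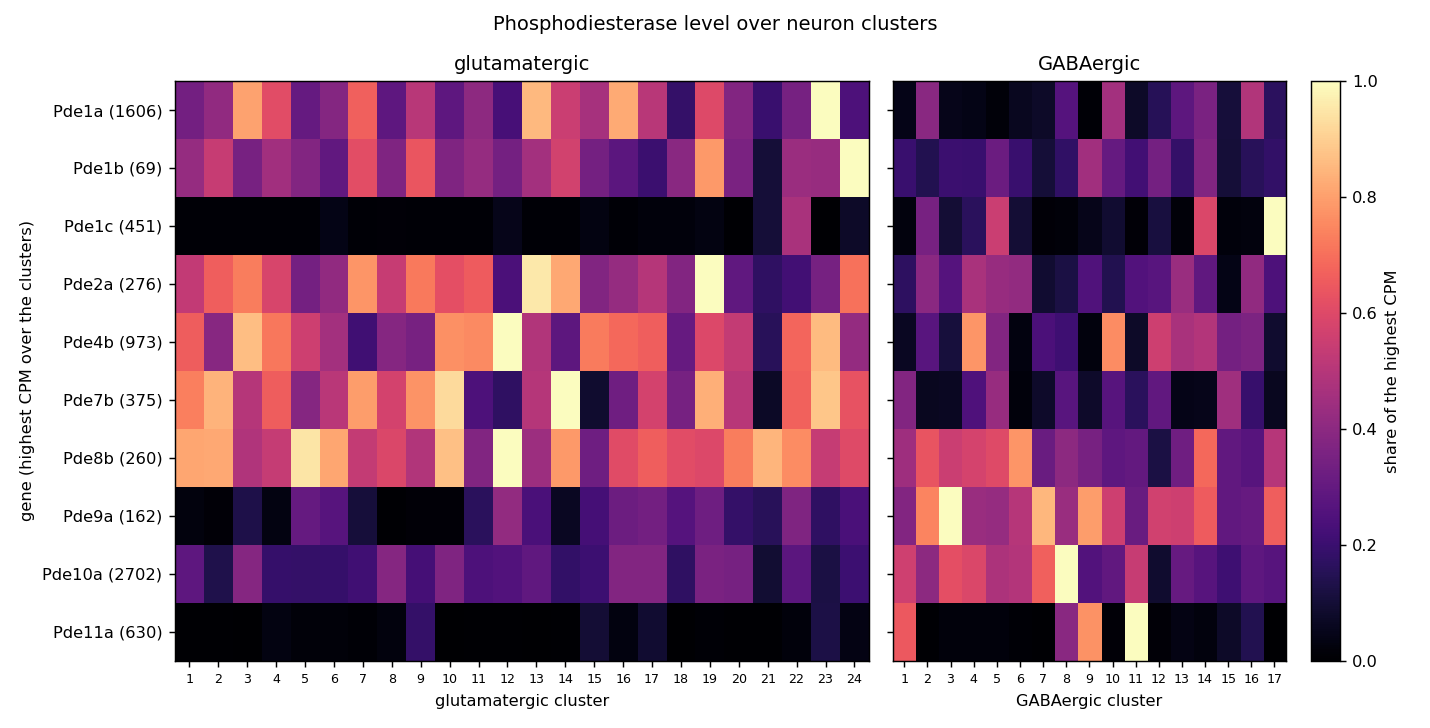
Level of each member (rows) in the 24 glutamatergic and 17 GABAergic clusters of at least 50 nuclei (columns), colored as a share of that member's highest CPM, which is printed beside its name. Pde11a is bright in GABAergic clusters 1, 8, 9 and 11 and Pde1c in GABAergic cluster 17, while Pde8b and Pde2a are spread over most glutamatergic clusters.

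Pde11a was named with Reln in glutamatergic nuclei when the members were chosen, so its values there are a description. Reln codes for reelin, a secreted glycoprotein of the extracellular matrix. Glutamatergic cluster 9, with 1057 nuclei, was led by Pde11a itself, B230110G15Rik, Cpa6, Gm10475 and Reln, although Pde11a had not been used to form it. It had 117 CPM of Pde11a and 647 CPM of Reln, and held 39.7% of all glutamatergic Pde11a UMIs in 5.56% of the nuclei. The 5 replicates with at least 20 nuclei of it had 124 and 147 CPM in aplCoA and 113, 84.6 and 115 CPM in pplCoA. A smaller group, cluster 25, was seen only in aplCoA replicate 3, where its 42 nuclei (led by Mndal, Vgll3, Slc1a3 and Piezo2) had 810 CPM of Pde11a and 83.3 CPM of Reln.

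Glutamatergic clusters 23, 15 and 17 had 80.2, 63.9 and 58.7 CPM of Pde11a, cluster 15 being led by Ebf2 and cluster 17 by Gpc5 and Prkcq. Cluster 4 (Sema3d, Gm27151, Pcsk5), which shares Reln with cluster 9 at 377 CPM, had 22.1 CPM of Pde11a. Cluster 21 had the highest glutamatergic Reln level, 3467 CPM, and only 2.83 CPM of Pde11a. A high Reln level therefore did not by itself go with Pde11a. After thinning to 2000 UMIs, a Pde11a UMI was seen in 7.97 ± 2.27% of glutamatergic nuclei with a Reln UMI and in 1.83 ± 0.53% of those without (n = 6). The share was higher with Reln in 6 of 6 replicates, from 5.36% against 1.54% in aplCoA replicate 2 to 11.5% against 1.99% in pplCoA replicate 3. The gene pair was chosen with results of these data known, so this count is a description and no test.

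In GABAergic neurons 4 clusters carried most Pde11a: cluster 11 (Gm45680, B020031H02Rik, Hapln1) with 630 CPM, cluster 9 (Gm20658, Mctp2, Vipr2) with 486 CPM, cluster 1 (Plekhg1, Chst7, Sv2c) with 407 CPM and cluster 8 with 247 CPM. They held 16.2%, 25.5%, 36.9% and 11.6% of the class's Pde11a UMIs. In cluster 1 the aplCoA replicates had 405, 446 and 474 CPM and the pplCoA replicates 375, 301 and 448 CPM. Reln was not shared by these clusters, with 6.44 CPM in cluster 9, 321 in cluster 11, 1113 in cluster 1 and 5754 in cluster 8. Clusters 7 and 13 had 2979 and 2424 CPM of Reln but 3.32 and 23.9 CPM of Pde11a. Over the 41 clusters the Pearson correlation of log2(CPM + 1) of Pde11a with Reln was 0.33, a description over clusters that share libraries.

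**Figure D3:**
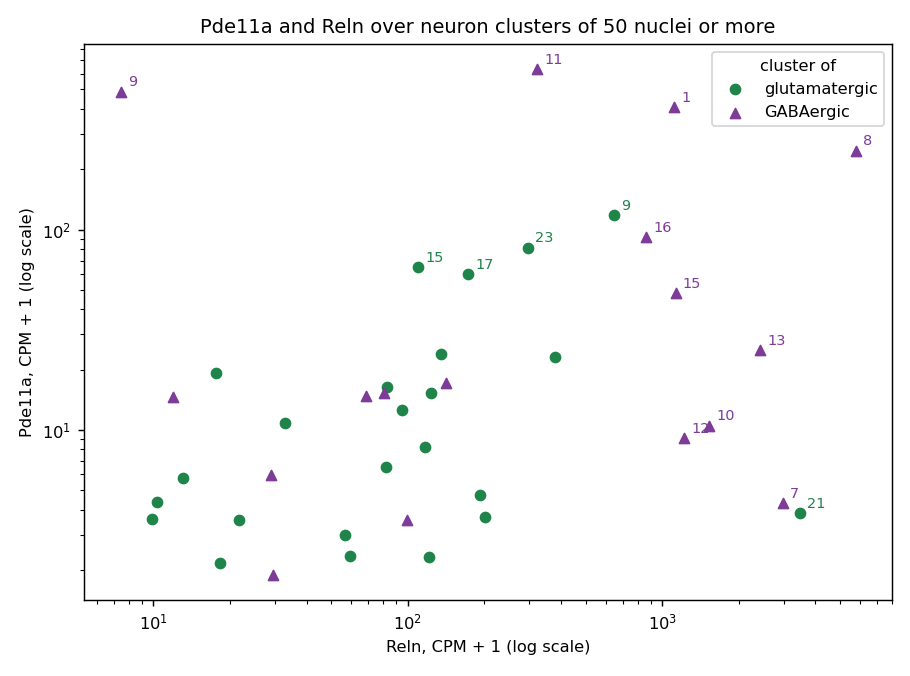
Pde11a level against Reln level in the 41 neuron clusters of at least 50 nuclei, both as CPM + 1 on log axes, with circles for glutamatergic and triangles for GABAergic clusters. Glutamatergic cluster 9 is high in both (117 and 647 CPM), while glutamatergic cluster 21 and GABAergic cluster 7 are high in Reln with Pde11a near 3 CPM.

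The genes whose levels over the same 41 clusters were most like each member's were ranked by this correlation among 13362 genes. Closest to Pde11a were Clk4 (0.71), Hapln1 (0.67) and Gm15511 (0.65). Closest to Pde9a were Gm50138 (0.94), Bend6 (0.91) and Mtmr3 (0.90). Among the PDE1 genes, Pde1a was nearest to Gm26871 (0.83), Atp2b4, a plasma membrane calcium pump (0.83), and Syt16 (0.81), Pde1b to Trat1 (0.82), Mink1 (0.81) and 4930483P17Rik (0.80), and Pde1c to Spsb4, Prpf4b and Gfod2 (all 0.77). Pde2a was nearest to Lrrc7 (0.78), B230334C09Rik (0.77) and the synaptic vesicle zinc transporter gene Slc30a3 (0.75), and Pde10a to Spred2 (0.69), Nt5dc3 (0.68) and Osgin2 (0.66). Pde4b was near to Gm44644 (0.80) and Gm44643 (0.78), Pde7b was nearest to Hace1 (0.80), Ltk (0.80) and Glis3 (0.78), and Pde8b to Btbd3 (0.74), Nefl (0.65) and Cux1 (0.64). Among the members the highest values were 0.69 for Pde1b with Pde2a and 0.65 for Pde1a with Pde4b, and the lowest was -0.63 for Pde7b with Pde9a. These are correlations across clusters, which share their libraries and differ in depth, and have no p-value.

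To ask whether the domains differed, UMIs were summed per replicate within a class and tested with edgeR's quasi-likelihood test over all genes seen in at least 10% of the class's nuclei in a domain, at a Benjamini-Hochberg adjusted p under 0.05. In glutamatergic neurons 3 of the 9 members tested differed, and Pde2a, Pde1a and Pde1b were all lower in aplCoA. Of all 9698 genes tested in the class 21% were called, 1007 of 2035 of them higher in aplCoA, so calls were common and 3 of 9 is no mark of these genes. Fold changes are log2 of aplCoA over pplCoA ± SE after TMM scaling and therefore differ from the ratio of the CPM values. Those of the 3 called members were larger in size than that ratio, and Pde11a in GABAergic neurons differed from it in sign.

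Pde2a had 149, 145 and 155 CPM in the aplCoA replicates and 189, 192 and 185 CPM in the pplCoA replicates. The groups lay well apart, with a log2 fold change of -0.42 ± 0.06 and an adjusted p of 0.0048 by edgeR. Pde1a had 688, 678 and 789 CPM in aplCoA and 791, 932 and 948 CPM in pplCoA. The ranges only just missed each other, at -0.40 ± 0.10 and an edgeR adjusted p of 0.0259. Pde1b had 30.0, 26.6 and 27.4 CPM in aplCoA and 31.3, 34.1 and 32.1 CPM in pplCoA, a fold change of -0.30 ± 0.08 with an edgeR adjusted p of 0.0242. Without aplCoA replicate 1 or 2 or pplCoA replicate 2 or 3 Pde1a kept its direction but not its call (adjusted p 0.0910 to 0.103), and Pde1b lost its call without any replicate but pplCoA replicate 1 (0.0512 to 0.0966) and with library 1 of aplCoA replicate 1 alone (0.0785).

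Pde4b pointed the other way, with 550, 642 and 641 CPM in aplCoA and 549, 387 and 425 CPM in pplCoA. The groups lay next to each other, and it did not pass (0.35 ± 0.13, edgeR adjusted p 0.0927). DESeq2 called it (adjusted p 0.0429), and without pplCoA replicate 1 it passed with 0.49 ± 0.10 (adjusted p 0.0079). Pde8b had 182, 188 and 177 CPM against 165, 161 and 147 CPM and did not pass (0.12 ± 0.07, adjusted p 0.221). Groups without overlap were seen for 5 of the 9 members and for 43.8% of all genes tested.

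Pde9a (0.33 ± 0.14), Pde7b (-0.21 ± 0.10) and Pde10a (-0.15 ± 0.07) overlapped between the domains, with edgeR adjusted p of 0.141, 0.176 and 0.175. Without aplCoA replicate 1, Pde7b was at -0.09 (adjusted p 0.401) and Pde9a at 0.19. Pde9a passed without aplCoA replicate 2 (0.48, adjusted p 0.0334), but with the larger unnamed cluster kept among the glutamatergic neurons it was at 0.05 (adjusted p 0.883). Keeping that cluster ended none of the 3 calls, and Pde4b was then at 0.50 (adjusted p 0.0694). Pde11a had 16.1, 11 and 26.5 CPM in aplCoA and 17.5, 12.2 and 24.5 CPM in pplCoA. The domains covered the same range (-0.09 ± 0.32, adjusted p 0.887), and the gene entered the test only through its 10.5% of pplCoA nuclei, with 9.65% in aplCoA. Its value turned on single replicates and was -0.47 (adjusted p 0.281) without aplCoA replicate 3, the replicate that held the small Pde11a-rich cluster 25, 0.15 (adjusted p 0.792) without aplCoA replicate 2, 0.01 without aplCoA replicate 1 and -0.30 without pplCoA replicate 2. It was called in none of these and fell under the 10% limit without pplCoA replicate 1 or 3. Pde1c was under the limit of 10% of nuclei in both domains and so was not tested at that limit. Its levels were 8.93, 6.06 and 12.6 CPM in aplCoA and 5.55, 4.80 and 4.97 CPM in pplCoA. Without cluster 22, of whose 134 nuclei 10 came from pplCoA, they were 8.07, 5.68 and 8.47 CPM against 5.21, 4.80 and 4.97 CPM, and the same 3 members were called. With no minimum share of nuclei, and cluster 22 included, Pde1c was tested and passed (0.76 ± 0.19, edgeR adjusted p 0.0102), as it did with edgeR's filterByExpr (0.76 ± 0.22, adjusted p 0.0387). Neither setting was run without cluster 22.

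**Figure D4:**
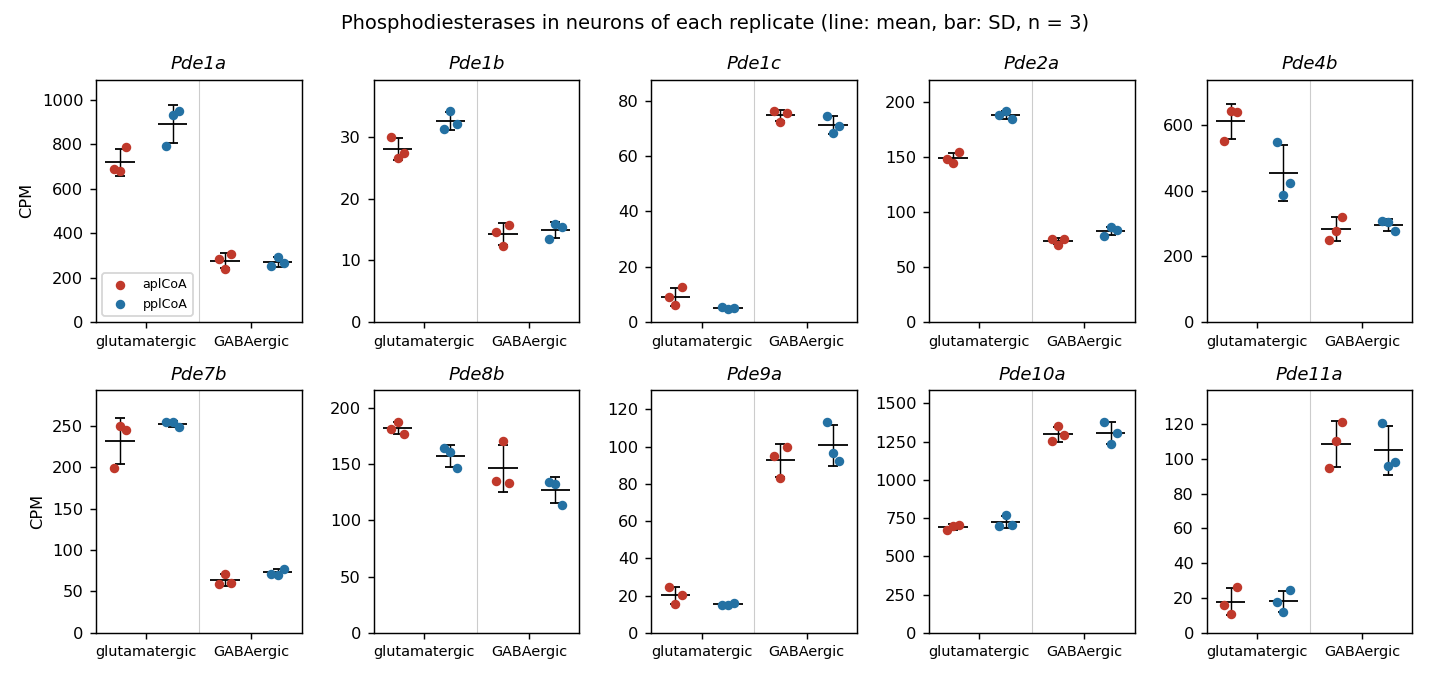
CPM of each member in glutamatergic (left of each panel) and GABAergic neurons (right) of the 3 aplCoA (red) and 3 pplCoA (blue) replicates, with the mean as a line and the SD as a bar. In glutamatergic neurons the Pde2a points lie at 145 to 155 CPM in aplCoA and 185 to 192 CPM in pplCoA, while the Pde11a points cover the same range in both domains.

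Other measures also moved with the domain in these neurons. The median share of mitochondrial UMIs was 0.0183 ± 0.0034% in aplCoA and 0.00941 ± 0.0015% in pplCoA, and that of ribosomal genes 0.271 ± 0.026% and 0.206 ± 0.013%, without overlap, while the median UMIs per nucleus overlapped (12234 ± 2029 and 13308 ± 1213). The summed glutamatergic markers were at 1005 ± 41.5 and 1170 ± 63.7 CPM, also without overlap. Of the lists for other cell types, the 4 OPC markers (583 ± 19.3 and 315 ± 109 CPM) and the 4 endothelial markers (3.17 ± 0.30 and 2.67 ± 0.16 CPM) did not overlap. The OPC sum was nearly all Lhfpl3, at 487 CPM over the class, with Pdgfra and Cspg4 near 1 CPM. Their part in the result was not tested.

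The domains also held different glutamatergic subtypes. At equal numbers of nuclei from each domain, 6 of the 26 clusters drew over 90% from one of them, and only clusters 2, 3, 10 and 14, with 4859 nuclei, had at least 20 nuclei in every replicate. Within these 4 clusters none of the 30 member-by-cluster pairs tested passed with edgeR, 4 were at an unadjusted p under 0.05, and the lowest adjusted p was 0.329. DESeq2 called none either. Log2 fold changes ran from -0.40 to 0.24, and the share of all 38938 gene-by-cluster tests that passed was 0.66%. Pde2a was at -0.15 ± 0.12, -0.20 ± 0.12, -0.06 ± 0.10 and -0.05 ± 0.10 in clusters 10, 14, 2 and 3, each smaller in size than over the whole class. Pde1a was between -0.11 ± 0.09 and 0.08 ± 0.10 there. A change of subtype mix and a change within subtypes cannot be told apart for the clusters held mostly by 1 domain.

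**Figure D5:**
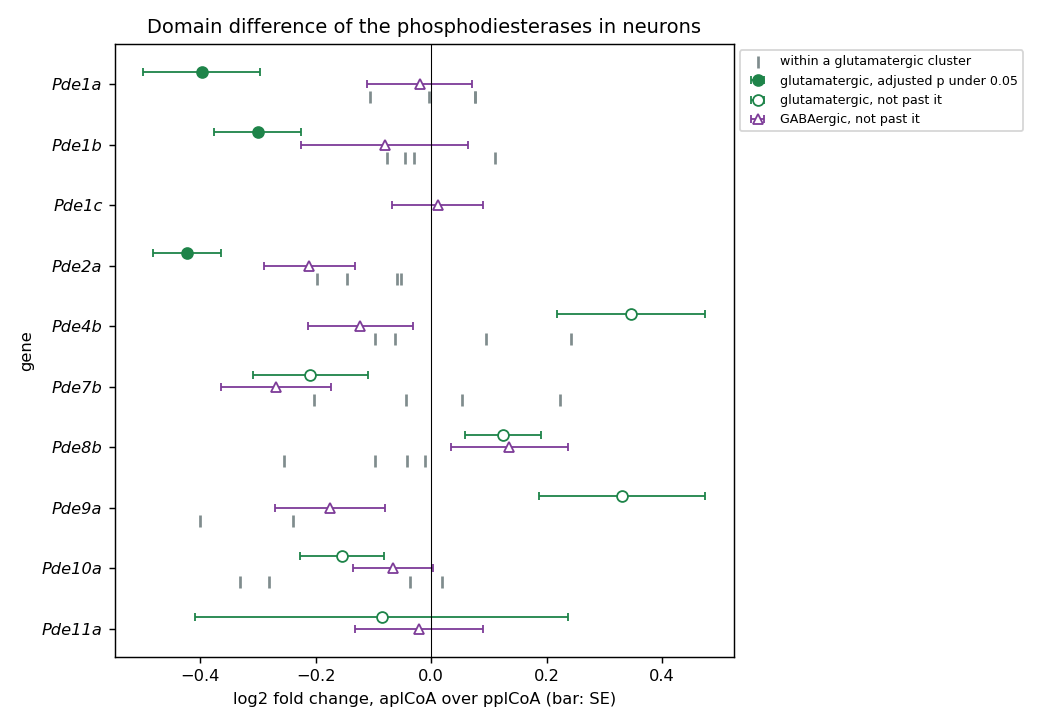
Log2 fold change of aplCoA over pplCoA for each member with its SE in glutamatergic (circles, filled where the adjusted p was under 0.05) and GABAergic neurons (triangles), with grey ticks for the fold change within each of the 4 shared glutamatergic clusters. Pde1a, Pde1b and Pde2a are filled at -0.40, -0.30 and -0.42, and their ticks sit nearer to 0 or above it.

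In GABAergic neurons none of the 10 members passed with edgeR, where 9.83% of 8736 genes did. At an unadjusted p under 0.05 there were 2, Pde7b (-0.27 ± 0.10, adjusted p 0.0998) and Pde2a (-0.21 ± 0.08, adjusted p 0.123), and DESeq2 called none. With cluster 19 left out, a setting chosen after seeing the data, Pde7b passed (-0.31 ± 0.09, adjusted p 0.0461), at 58.2, 66.7 and 59.8 CPM in aplCoA and 71.6, 69.0 and 77.3 CPM in pplCoA, and Pde8b moved from 0.14 to 0.02 (adjusted p 0.922). Pde2a had 75.6, 70.3 and 75.8 CPM in aplCoA and 78.7, 86.2 and 83.5 CPM in pplCoA, lower in each aplCoA replicate as in the glutamatergic class but short of the threshold. With all clusters kept, 1 of the 10 members and 28.1% of all genes tested had groups without overlap. Pde10a, the member with the highest share of GABAergic nuclei, was at -0.07 ± 0.07 (adjusted p 0.657), and Pde11a at -0.02 ± 0.11 (adjusted p 0.946). The median mitochondrial share of these nuclei was 0.0288 ± 0.0073% in aplCoA and 0.0163 ± 0.0013% in pplCoA, and the ribosomal share 0.375 ± 0.020% and 0.288 ± 0.019%. The summed GABAergic markers stood at 1264 ± 31.3 and 1079 ± 9.90 CPM and the OPC list at 304 ± 6.57 and 350 ± 8.39 CPM. None of these overlapped, and their part was not tested.

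Whether a member's domain change differed between the neuron classes was tested directly, in 1 edgeR model over both classes with a term for each replicate. Pde4b passed, with a difference of 0.49 ± 0.11 between 0.35 in glutamatergic and -0.12 in GABAergic neurons (adjusted p 0.0376). It was the only one of the 9 members tested that passed, where 5.04% of 8418 genes did. Leaving out any replicate but pplCoA replicate 1 ended this call, and so did DESeq2's size factors (0.46, adjusted p 0.0510). Pde9a (0.55 ± 0.14, adjusted p 0.0613) and Pde1a (-0.35 ± 0.09, adjusted p 0.0608) came next. The glutamatergic change of Pde9a was smaller with the larger unnamed cluster kept, as given above. With DESeq2's size factors Pde1a passed in place of Pde4b (-0.38, adjusted p 0.045). Pde2a's decrease, called in glutamatergic neurons only, did not differ detectably between the classes (-0.19 ± 0.06, adjusted p 0.131).

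In the 7 non-neuronal classes with enough nuclei, 7 of 35 member-by-class pairs were at an unadjusted p under 0.05 with edgeR. Of the 35 pairs 1 passed, where 1.27% of 39980 gene-by-class tests did. It was Pde10a in ABCs, cells that seal the arachnoid layer of the meninges. The aplCoA replicates had 202, 175 and 121 CPM and the pplCoA replicates 61.7, 57.9 and 44.7 CPM. The groups lay apart, with a log2 fold change of 1.62 ± 0.30 and an adjusted p of 0.0454 (edgeR, 7 of 5942 genes called in this class). The pplCoA replicates rest on 40 to 54 ABC nuclei and the aplCoA replicates on 68 to 367. The call was lost when the unnamed cluster with ABC markers was kept in the class (1.44, adjusted p 0.272), with either library of aplCoA replicate 1 alone, and without any replicate but aplCoA replicate 3. Of the 6 members tested in ABCs, 3 had groups without overlap and 3 were at an unadjusted p under 0.05. Besides Pde10a, the groups lay apart for Pde7b (459 CPM or more in aplCoA, 414 CPM or less in pplCoA). They also lay apart for Pde4b (55.5 CPM or more and 51.5 CPM or less). Both were higher in aplCoA, as Pde10a was, but did not pass. Whether the changes of these members in ABCs are separate was not tested. The summed neuron markers were alike in ABCs of the domains (75.8 ± 33.1 and 76.2 ± 33.4 CPM). The median mitochondrial share (0.0335 ± 0.0057% and 0.0166 ± 0.0147%), the ABC markers (2459 ± 128 and 2890 ± 239 CPM) and the VLMC markers (195 ± 8.08 and 237 ± 29.4 CPM) did not overlap. The endothelial markers, at 6.71 ± 1.94 CPM in aplCoA and with no UMI in the 3 pplCoA replicates, did not either, and the part of these measures was not tested.

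Pde10a in astrocytes had 73.2, 40.5 and 85.4 CPM in aplCoA and 142, 101.2 and 136 CPM in pplCoA. These groups did not overlap either, in the opposite direction to ABCs, but the pair did not pass (-0.92 ± 0.24, edgeR adjusted p 0.111), while DESeq2 and edgeR's likelihood ratio test called it. The median mitochondrial share of astrocytes was 0.0392 ± 0.0055% in aplCoA and 0.00827 ± 0.0143% in pplCoA, without overlap, and its part was not tested. Pde4b in MOLs did not overlap between the domains, with the 6 values given above (-0.25 ± 0.10, adjusted p 0.301). The share of all genes without overlap was computed for the neuron classes only. In OPCs, the glial class with the most called genes (406 of 6196), none of the 7 members tested passed with edgeR or DESeq2, and 1 was at an unadjusted p under 0.05. Their fold changes lay between -0.22 ± 0.08 for Pde10a and 0.06 ± 0.13 for Pde2a.

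The other genes of the pathway were taken from lists of 62 genes. In glutamatergic neurons 14 of the 47 tested were called, 5 higher and 9 lower in aplCoA, where 21% of all genes were. Leaving out aplCoA replicate 1 or pplCoA replicate 2 left 5 calls, aplCoA replicate 2 left 7 and pplCoA replicate 3 left 6. In GABAergic neurons none of the 45 tested was called by edgeR, where 9.83% of all genes were, with 6 at an unadjusted p under 0.05 and 1, Pde4d, called by DESeq2. Of 8 adenylyl cyclases tested, which make cAMP, Adcy1 (-0.88 ± 0.13), Adcy9 (-0.68 ± 0.14), Adcy10 (-0.65 ± 0.13) and Adcy8 (-0.62 ± 0.10) were lower in aplCoA and Adcy2 (0.35 ± 0.11) was higher. Adcy1, a calcium-stimulated cyclase, had 44.4, 40.9 and 47.1 CPM in aplCoA and 61.0, 81.5 and 87.0 CPM in pplCoA, without overlap. The median fold change of the 8 was -0.33, against 0.01 over all genes tested in the class.

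Of the other 14 phosphodiesterases 8 were tested, and Pde4d was higher (0.39 ± 0.09, with 710, 803 and 770 CPM against 600, 550 and 492 CPM) and Pde6h lower (-0.71 ± 0.13) in aplCoA. Pde6h codes for an inhibitory subunit of the cone photoreceptor enzyme, and was seen in 6.70% of aplCoA and 10.7% of pplCoA nuclei, so it entered the test only through pplCoA, where it is high, and its call is no support for a direction. Of 12 effectors tested, the protein kinase A catalytic gene Prkacb was higher (0.24 ± 0.07) and its regulatory gene Prkar2b (-0.25 ± 0.07), the cGMP-dependent kinase gene Prkg2 (-0.48 ± 0.09) and the cAMP-activated exchange factor gene Rapgef4 (-0.28 ± 0.08) were lower. Gnas, the stimulatory G protein alpha subunit, and Gnai2, an inhibitory one, were both higher (0.58 ± 0.12 and 0.53 ± 0.15), as 2 of 7 tested. Among 7 anchors Akap5 was lower (-0.49 ± 0.12). None of 5 guanylyl cyclase and nitric oxide synthase genes tested passed with edgeR, also not at an unadjusted p under 0.05, and Gucy1a2 had 445, 463 and 453 CPM against 421, 419 and 396 CPM.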

How the data were processed

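Nuclei were profiled with 10x Chromium snRNA-seq in 3 aplCoA and 3 pplCoA replicates (7 libraries). The authors made the deposited unfiltered UMI counts per gene and barcode with Cell Ranger 5.0.0 on mm10, with intronic reads included, so long genes gain UMIs from unspliced RNA. Barcodes with at least 1000 genes were kept. Those above the median plus 5 scaled median absolute deviations of UMIs, or the upper quartile plus 5 interquartile ranges of mitochondrial or ribosomal share, were removed, as were the nuclei with the highest Scrublet scores (1% per 1000 nuclei). The remaining nuclei were clustered in scanpy 1.11.5 (5000 variable genes without the phosphodiesterases, 50 components, 15 neighbours, Leiden resolution 1) and classes were named from marker lists. Summed UMI counts per replicate were tested in R 4.3.3 with edgeR 4.0.16 (TMM, quasi-likelihood, genes in at least 10% of nuclei of a domain), 3 against 3, with Benjamini-Hochberg adjustment. Both libraries of aplCoA replicate 1 were summed. The SE given with a fold change is its size divided by the square root of the edgeR F statistic, and not a fitted SE. DESeq2 1.42.0 and other filters, scalings and clusterings were alternatives. On simulated counts the test recovered 99% to 100% of 200 genes changed by 2 on the log2 scale in 4 classes. These were glutamatergic and GABAergic neurons, OPCs and NFOLs. Every member's change given here was smaller than 2, so the power for changes of their size was not measured. Each replicate is a pool of mice, so p-values measure the spread between pools. Same-numbered replicates were not paired, because the labels name no pairing. Correlations of their deviations ran from -0.0110 to 0.171 in glutamatergic and from -0.144 to 0.00414 in GABAergic neurons. Those of different-numbered replicates ran from -0.227 to 0.163 and from -0.180 to 0.193. Deviations from a mean of 3 replicates are tied to each other, so these values cannot decide whether pairs exist.

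The members and gene lists were chosen with earlier results of these data known. Genes named are the members, all called genes of the pathway lists, the leading genes of the clusters described and, for each member, the 3 most alike genes, except items that are not reported here. Coordinates are from the GENCODE vM21 annotation of GRCm38, and the promoter windows from RefSeq.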

Additional observations from a re-analysis of the deposited data

Results flagged for a closer look

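In 1 edgeR model over both neuron classes, 7 genes of the members and the pathway lists changed differently between the domains in glutamatergic and GABAergic neurons (log2 of aplCoA over pplCoA, glutamatergic minus GABAergic). Open to this test were 9 members and, of the pathway lists, at most the 45 genes tested in GABAergic neurons. The same test called 5.04% of all 8418 genes. The phosphodiesterases were Pde4b, with a difference of 0.49 that did not pass with DESeq2's size factors or without any replicate but pplCoA replicate 1, and its family member Pde4d, with 0.64 between 0.39 and -0.23 (adjusted p 0.0069). The calcium-stimulated cyclase Adcy1 had a difference of -0.87 (adjusted p 0.0061), the exchange factor Rapgef4 -0.37 (adjusted p 0.0285), the G protein gene Gnas 0.42 (adjusted p 0.0284) and the anchors Akap5 and Akap9 -0.48 (adjusted p 0.0178) and 0.29 (adjusted p 0.0460). The calls of Pde4d and Adcy1 held without each replicate, and those of Rapgef4, Gnas, Akap5 and Akap9 were lost without 1 or more of them.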

How the results depend on the processing

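Of 378 values of single members under alternatives, 359 stayed on their side of the threshold (14 values that were not called changed sign), 13 lost a call, 6 gained one and none of the called values reversed. Pde2a in glutamatergic neurons lost its call only at the stricter threshold (adjusted p under 0.01 and 1.5-fold). The members called in glutamatergic neurons numbered 3 in the report, 0 at the stricter threshold, 5 with no minimum share of nuclei (Pde4b and Pde1c added) and 1 to 4 without each replicate. In GABAergic neurons 1 (Pde7b, -0.32, adjusted p 0.0194) was called with doublets kept and 1 (Pde7b, -0.31) with glutamatergic cluster 22 and GABAergic cluster 19 left out, a setting that left the other counts in neurons at 3, 1 and 14. In the non-neuronal classes the count was 1 in the report, 2 with DESeq2, the likelihood ratio test, no minimum share or the replicate block, 0 at the stricter threshold, with library 1 or library 2 of aplCoA replicate 1 alone or with unnamed clusters kept, and 0 to 1 without each replicate. Within glutamatergic clusters 1 (Pde10a in cluster 3, -0.34) was called with no minimum share. The difference between the neuron classes gave 1 member in the report, 0 at the stricter threshold, 3 with the likelihood ratio test, 4 with no minimum share and 0 to 2 without each replicate. The other cyclic nucleotide genes gave 14 calls, 3 at the stricter threshold and 5 to 16 without each replicate. The replicate block gave 3 glutamatergic and 0 GABAergic members and 12 other genes, and the numbers share no known pairing. The class with the highest pooled CPM, a measure that puts OPCs first for Pde7b and GABAergic neurons first for Pde11a where the mean over replicates puts macrophages and ABCs first, was the same for 10 of 10 members with doublets kept, unnamed clusters kept or no filter but genes per barcode. It was the same for 9 with log-normalized clustering, where macrophages came first for Pde8b. Only the 10 classes of the report were compared. Mural classes (doublets kept, no filter but genes per barcode) and an endothelial class (the latter setting) could therefore not come first. Glutamatergic Pde9a, not called, moved from 0.33 to 0.04 with log-normalized clustering and 0.02 with no filter but genes per barcode. Apart from fewer replicates or a stricter threshold, the cause of these changes was not tested. Pde11a and Pde1c were seen in 9.99% and 7.23% of glutamatergic nuclei, and the part of depth in these shares was not tested.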

Other observations

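Other phosphodiesterases, described by pooled CPM over all nuclei of a class with no test, were also spread unevenly over the classes. Pde3b, a cGMP-inhibited enzyme, had 2635 CPM in microglia, 590 CPM in macrophages and 64.1 CPM in glutamatergic neurons. Pde8a, the paralog of the astrocyte-rich Pde8b, had 757 CPM in MOLs and 8.38 to 97.4 CPM in the other classes. Pde4d had 2379 CPM in NFOLs, 1966 CPM in GABAergic and 669 CPM in glutamatergic neurons, a different order of the neuron classes from Pde4b. Pde5a, the cGMP-specific target of sildenafil, was highest in ABCs at 268 CPM. Pde7a had 243 CPM in macrophages and 214 CPM in ABCs, and Pde3a 99.9 CPM in OPCs and 95.9 CPM in GABAergic neurons against 13.2 CPM in glutamatergic neurons.

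Some small clusters stood apart and are given as values only. GABAergic cluster 19, with 38 nuclei at a median of 2223.5 UMIs, had 3815 CPM of Pde8b. Its leading genes Slc38a11, Vtn, Carmn and Atp13a5 go against its class, Vtn and Atp13a5 being known from pericytes. Slc38a11, Vtn and Atp13a5 were also among the leading genes of the mural clusters named under other settings. Cluster 19 stayed in the GABAergic class, and the values without it stand in the report. Glutamatergic cluster 26 (24 nuclei) had 2766 CPM of Pde4b, and GABAergic cluster 20 (24 nuclei) 2429 CPM of Pde1a. The larger unnamed cluster, with 1090 nuclei, had 742 CPM of Pde1a, 182 CPM of Pde2a, 101.3 CPM of Pde4b and 8.57 CPM of Pde11a.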
